A study of Mus musculus with 2 samples.

Results

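The 10 genes described here are members of the WNT signaling pathway, and were taken by name from the 27254 genes measured in single lung cells of newborn mice. They comprised 5 ligands (Wnt2, Wnt4, Wnt5a, Wnt7b and Wnt11), 3 secreted modulators (Rspo3, Sfrp1 and Sfrp2) and 2 transcripts used as readouts of the response (Axin2 and Lef1). All 10 were present in the count tables of both batches. For each gene the level and the detection were obtained in each cell class and batch, and the cells carrying ligands were set beside the cells carrying Axin2 and Lef1. Whole lungs of wild-type (wt) C57BL/6J mice, which were female, were collected at PND1 (postnatal day 1) and profiled by Drop-seq, in which droplets pair single cells with barcoded beads. There were 2 batches with 1 mouse per batch, all of the same genotype and age and without treatment, so that the comparisons were between cell types. Left and right lobes were dissociated with TrypLE and collagenase, red blood cells were lysed, and cells were taken from the top of the suspension after settling.

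WNT ligands are lipid-modified secreted proteins that act mostly on neighbouring cells through Frizzled receptors. In the canonical branch a ligand stabilizes beta-catenin, which joins TCF and LEF factors in the nucleus and turns on genes such as Axin2, a negative feedback regulator, and Lef1, itself a member of the TCF/LEF family. R-spondins strengthen the response by keeping Frizzled receptors at the cell surface, and secreted Frizzled-related proteins (SFRPs) bind ligands outside the cell. In the lung, WNT signals take part in the growth of mesenchyme and airways, and in the maintenance of alveolar type 2 cells.

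In Batch 1, 2388 of 2389 cells had at most 10% mitochondrial transcripts and were kept, with 4432553 unique molecular identifiers (UMIs, each a counted transcript molecule) and a median of 1387 UMIs per cell. In Batch 2, 5615 of 7555 cells were kept, with 18232639 UMIs and a median of 2014 per cell, and 1940 cells (25.7%) were over the limit. No cell barcode was shared by the batches. Cells were clustered without any WNT gene and the clusters were named from markers as "X-like" classes, of which 28 were obtained and 19 held at least 20 cells in each batch. The batches filled some classes from different clusters. Among alveolar fibroblast-like cells, 683 of the 865 of Batch 1 were in 1 cluster, and 865 of the 1199 of Batch 2 were in another. Levels are given as UMIs per 10000 UMIs of the class, with exact 95% Poisson intervals, and detection as the percentage of cells in which the gene had any UMI. Both intervals and floors cover counting error only.

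**Figure D1:**
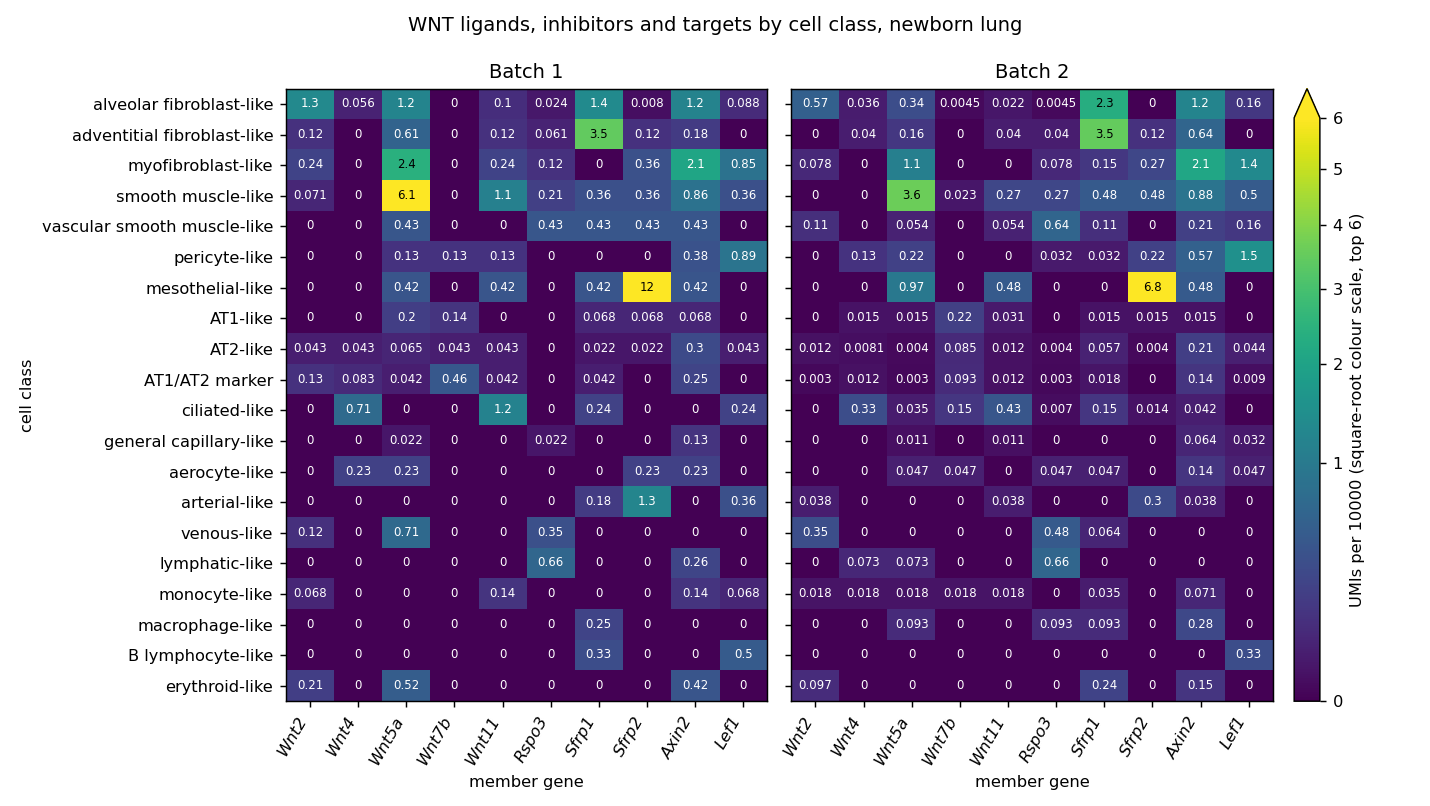
Levels of the 10 genes (columns) in 20 of the 28 cell classes (rows) in Batch 1 (left) and Batch 2 (right), in UMIs per 10000 on a square-root colour scale that tops out at 6, with each level printed in its cell. Wnt5a was highest in smooth muscle-like cells (6.15 and 3.60), Sfrp2 in mesothelial-like cells (11.9 and 6.76) and Axin2 in myofibroblast-like cells (2.06 and 2.09).

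Wnt2, a canonical ligand of lung mesenchyme (GRCm38 chr6:17988940-18030585, minus strand, protein coding), was found mainly in alveolar fibroblast-like cells, the Tcf21-expressing fibroblasts of the distal lung. These cells carried 84.6% of all Wnt2 UMIs. Their level was 1.33 UMIs per 10000 in Batch 1 (165 UMIs, 1.13 to 1.54) and 0.565 in Batch 2 (127 UMIs, 0.471 to 0.673). Wnt2 was detected in 15.95% of these cells in Batch 1 and 9.34% in Batch 2, or 7.98% and 3.59% with each cell thinned to 600 UMIs. No Wnt2 UMI was found in the 292 and 546 general capillary-like cells, whose sums allow a level of up to 0.0666 in Batch 1 and 0.0319 in Batch 2. Venous-like cells of Batch 2 held 11 UMIs in 4 of 52 cells (0.350), against 1 UMI in the 21 cells of Batch 1 (0.118). The Batch 2 level there was 0.722 with a mitochondrial limit of 5% and 0.128 as a mean over cells.

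Wnt5a, a ligand mostly acting outside the beta-catenin branch (chr14:28504750-28527448, plus strand), was highest in smooth muscle-like cells. The level there was 6.15 UMIs per 10000 in Batch 1 (86 UMIs, 4.92 to 7.59) and 3.60 in Batch 2 (159 UMIs, 3.06 to 4.20), and 42.1% and 37.9% of these cells held the transcript. With cells thinned to 600 UMIs the shares were 29.9% and 16.6%. Myofibroblast-like cells held 2.43 and 1.124, and alveolar fibroblast-like cells 1.21 and 0.338. In each batch the intervals of these 3 classes did not overlap. Adventitial fibroblast-like cells held 0.606 and 0.159. Mesothelial-like cells held 0.417 (2 UMIs) and 0.965 (4 UMIs), the latter above the alveolar fibroblast-like level of Batch 2, within overlapping intervals. In general capillary-like cells a single UMI was seen in each batch (0.0222 and 0.0106). The neutrophil-like class differed between mice, with 5 Wnt5a UMIs in 2 of 11 cells of Batch 1 and none in 96 cells of Batch 2.

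The remaining ligands were sparse. Wnt4 (chr4:137277489-137299726, plus strand), a ligand known from kidney and gonad development, was highest in ciliated-like cells, the Foxj1-expressing cells of the airways, which carried 56.2% of its UMIs. The level was 0.331 in Batch 2 (47 UMIs in 22 of 90 cells, 0.243 as the lower limit), and 0.709 in Batch 1, where only 3 UMIs in 9 cells were behind it. As a mean over cells the Batch 2 level was 0.538. Wnt11 (chr7:98835112-98855195, plus strand), which acts in cell movements and tissue shape, shared this peak, with 1.18 in Batch 1 (5 UMIs) and 0.429 in Batch 2 (61 UMIs in 28 of 90 cells). A further Wnt11 peak was in smooth muscle-like cells, at 1.14 in Batch 1 (16 UMIs, 0.654 to 1.86) and 0.272 in Batch 2 (12 UMIs, 0.140 to 0.474). The intervals of ciliated-like and smooth muscle-like cells overlapped in each batch. Mesothelial-like cells held Wnt11 at 0.417 and 0.483 (2 UMIs in each batch), the latter above the ciliated-like level of Batch 2. Wnt7b (chr15:85535437-85582473, minus strand), an epithelial ligand of the developing lung, had 83.3% of its 18 UMIs in Batch 1 and 90.8% of its 98 UMIs in Batch 2 in epithelial classes. AT1-like cells, which form the gas exchange surface, held 0.136 (2 UMIs) and 0.215 (14 UMIs). AT2-like cells, which make surfactant, held 0.0431 (2 UMIs) and 0.0849 (21 UMIs). Cells with markers of both types held 0.459 in Batch 1 (11 UMIs) and 0.0928 in Batch 2 (31 UMIs), so that their order with AT1-like cells differed between the mice, within overlapping intervals. These cells had a median of 5470 UMIs, and 1.45% of them were called doublets. Among 865 and 1199 alveolar fibroblast-like cells, 0 and 1 held Wnt7b. In the airways, ciliated-like cells held Wnt7b at 0.148 in Batch 2 (21 UMIs in 90 cells), and none was seen in the 9 cells of Batch 1. They carried 18.1% of all Wnt7b UMIs.

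Rspo3 (chr10:29452416-29535867, minus strand), the R-spondin, was highest in lymphatic-like, vascular smooth muscle-like, venous-like and smooth muscle-like cells. Lymphatic-like cells, marked by Prox1 and Flt4, held 0.660 UMIs per 10000 in Batch 1 (5 UMIs in 3 of 24 cells) and 0.656 in Batch 2 (9 UMIs in 5 of 31 cells). Venous-like cells held 0.355 and 0.478 (0.235 in Batch 2 as a mean over cells), and smooth muscle-like cells 0.215 and 0.272. Vascular smooth muscle-like cells of Batch 2 held 0.643 (12 UMIs in 10 of 85 cells), and the 15 cells of Batch 1 held 0.427 from 1 UMI. The intervals of these 4 classes overlapped in each batch, and their order cannot be told.

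The inhibitors peaked in different cell types. Sfrp1 (chr8:23411502-23449632, plus strand) was highest in adventitial fibroblast-like cells, the collagen-rich fibroblasts around vessels and airways, with 3.46 UMIs per 10000 in Batch 1 (57 UMIs, 2.62 to 4.48) and 3.51 in Batch 2 (88 UMIs, 2.81 to 4.32). Alveolar fibroblast-like cells held 1.37 (1.18 to 1.60) and 2.32 (2.12 to 2.53), and as the most numerous class carried 70.8% of all Sfrp1 UMIs. The difference between the mice in this class lay mainly in 1 of its clusters, with 1.38 in Batch 1 and 4.64 in Batch 2, against 1.33 and 1.66 in the other large cluster. Myofibroblast-like cells held 0 UMIs in 64 cells of Batch 1 and 4 UMIs in 180 cells of Batch 2 (0.155).

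Sfrp2 (chr3:83766321-83774316, plus strand) was concentrated in mesothelial-like cells, the lining of the lung surface, which numbered 24 in Batch 1 and 11 in Batch 2 yet carried 53.5% of all Sfrp2 UMIs. Their level was 11.9 UMIs per 10000 in Batch 1 (57 UMIs, 9.002 to 15.4) and 6.76 in Batch 2 (28 UMIs, 4.49 to 9.76), and 70.8% and 72.7% of them held the transcript. With a mitochondrial limit of 5%, the Batch 2 level was 3.72. Arterial-like cells held 1.25 and 0.303, from 7 UMIs in 2 of 22 cells and 8 UMIs in 3 of 78 cells, and at the 5% limit the class held none in Batch 2. Smooth muscle-like cells held 0.357 and 0.475, and adventitial fibroblast-like cells 0.121 and 0.120. The study's published cell list was at hand for part of the first batch only. There, its subtype MatrixFB-2 held mesothelial-like and adventitial fibroblast-like cells. Its 20 mesothelial-like cells held 55 Sfrp2 UMIs (12.9 UMIs per 10000), and its 56 adventitial fibroblast-like cells held 2 (0.169). From the Drop-seq RNA of both batches, the paper reports Sfrp2 as enriched in MatrixFB-2. It also reports SFRP2 and IGFBP5 staining in mesenchymal cells along the airways, as a subset of MatrixFB-2. Staining shows protein, the counts here are of RNA, and positions in the lung were not measured here.

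The target Axin2 (chr11:108920349-108950783, plus strand) was highest in myofibroblast-like cells, which deposit elastin at the alveolar septa. The level was 2.06 UMIs per 10000 in Batch 1 (17 UMIs, 1.20 to 3.30) and 2.09 in Batch 2 (54 UMIs, 1.57 to 2.73). Alveolar fibroblast-like cells held 1.21 (150 UMIs, 1.02 to 1.41) and 1.23 (276 UMIs, 1.09 to 1.38), and carried 53.0% of all Axin2 UMIs. The intervals of these 2 classes overlapped in Batch 1 and not in Batch 2. Smooth muscle-like cells held 0.858 and 0.882. In each of these 3 classes the intervals of the mice overlapped.

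Outside these classes Axin2 was lower. Pericyte-like cells held 0.382 and 0.574, and adventitial fibroblast-like cells 0.182 and 0.638. AT2-like cells held 0.302 (14 UMIs, 0.165 to 0.506) and 0.206 (51 UMIs, 0.154 to 0.271), and AT1-like cells 1 UMI in each batch (0.0679 and 0.0154). Axin2 was detected in 14.5% and 17.9% of alveolar fibroblast-like cells, and in 2.06% and 1.10% of general capillary-like cells, whose median depth over both batches was 1400 UMIs against 1509. In AT2-like cells, with a median of 3037 UMIs, it was 6.32% and 6.93%. Cells with markers of both AT1 and AT2 held Axin2 at 0.250 (6 UMIs) and 0.144 (48 UMIs), within intervals that overlapped those of AT2-like cells. Axin2 was detected in 5 of 51 and 43 of 433 of them, at a median depth of 5470 UMIs. The paper reports Axin2-positive cells as more frequent in its AT1/AT2 subtype than in other epithelial cells.

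Lef1 (chr3:131110471-131224356, plus strand) had another order. Pericyte-like cells, which wrap capillaries, held 0.891 UMIs per 10000 in Batch 1 (7 UMIs, 0.358 to 1.84) and 1.50 in Batch 2 (47 UMIs, 1.10 to 1.99). Myofibroblast-like cells held 0.849 (7 UMIs) and 1.36 (35 UMIs), within the intervals of the pericyte-like cells. Smooth muscle-like cells held 0.357 and 0.498, and alveolar fibroblast-like cells 0.0884 and 0.160. No Lef1 UMI was found in the 80 and 97 adventitial fibroblast-like cells or in the 77 and 301 AT1-like cells. B lymphocyte-like cells held 0.499 and 0.334 (3 UMIs in each batch), and a mixed lymphoid cluster held 0.505 (2 UMIs) and 0.496 (9 UMIs). LEF1 is known for its part in lymphocyte development.

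The bases before the annotated starts of the targets are shown because TCF/LEF factors can bind near the starts of canonical target genes. RefSeq windows of 250 bases before a start were at hand for 6 of the 10 genes, on GRCm38.p6. They were searched for the motif CTTTGAA, the motif CTTTGAT, the motif CTTTGTA and the motif CTTTGTT on both strands, where a match on 1 strand can overlap a match on the other. Capitals mark a match, and both genes are on the plus strand. Of 4 Lef1 windows, only that of a start inside the gene held a match, and it is shown for this reason.
Axin2 (chr11:108920099-108920348): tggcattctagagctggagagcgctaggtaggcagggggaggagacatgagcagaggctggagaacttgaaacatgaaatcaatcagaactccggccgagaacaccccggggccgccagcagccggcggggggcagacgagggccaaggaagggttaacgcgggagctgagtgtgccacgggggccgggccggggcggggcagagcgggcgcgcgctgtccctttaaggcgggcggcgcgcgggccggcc
Lef1, start inside the gene (chr3:131156044-131156293): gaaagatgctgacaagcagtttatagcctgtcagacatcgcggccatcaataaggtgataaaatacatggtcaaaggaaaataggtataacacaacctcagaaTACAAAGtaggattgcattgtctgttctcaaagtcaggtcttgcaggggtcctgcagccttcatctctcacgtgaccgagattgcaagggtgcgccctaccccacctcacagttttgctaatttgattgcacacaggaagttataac
The Lef1 match TACAAAG begins 147 bases before its start, and a Wnt11 window held ATCAAAG at 51 bases before a start. Of 10 windows of the 6 genes, 2 held a match, and 14.8% of all 32851 windows did. No match was found in the Axin2 window, which says only that these letters are absent from it. The 3′ counts do not tell which start was used.

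Axin2 was detected in 200 cells of Batch 1 and 463 of Batch 2. Of these, 125 (62.5%) and 214 (46.2%) were alveolar fibroblast-like, which made up 36.2% and 21.4% of all cells. Lef1 was detected in 44 and 154 cells, of which pericyte-like cells were 7 and 40 and myofibroblast-like cells 6 and 30. In Batch 2, 32 cells held both targets, of which 12 were myofibroblast-like and 8 alveolar fibroblast-like.

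**Figure D2:**
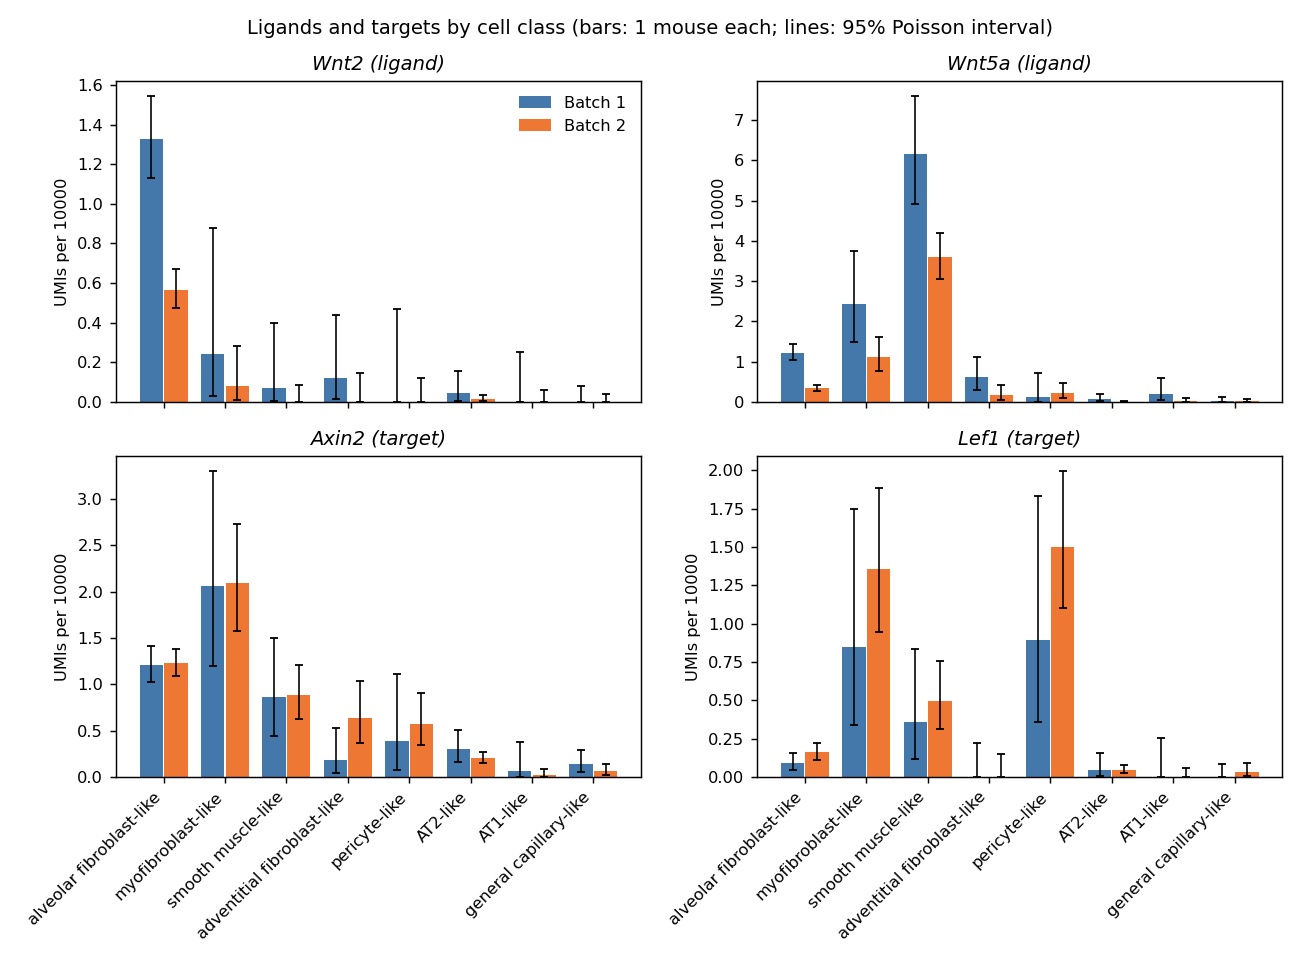
Levels in UMIs per 10000 (bars, from 0) of the ligands Wnt2 and Wnt5a and the targets Axin2 and Lef1 in 8 cell classes, Batch 1 in blue and Batch 2 in orange, with exact 95% Poisson intervals over the counts of 1 mouse. Wnt2 stood at 1.33 and 0.565 in alveolar fibroblast-like cells, which held Axin2 at 1.21 and 1.23, and Wnt5a and Axin2 were both present in myofibroblast-like and smooth muscle-like cells.

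Senders and target-bearing cells were set beside each other by class. Alveolar fibroblast-like cells combined the highest Wnt2 with the second highest Axin2, and had low Lef1. Smooth muscle-like cells combined the highest Wnt5a with intermediate Axin2 and Lef1, and myofibroblast-like cells combined the second highest Wnt5a with the highest Axin2 and high Lef1. Pericyte-like cells had the highest Lef1, with intervals that overlapped those of myofibroblast-like cells in both batches. Pericyte-like cells held 0 Wnt2 UMIs in both batches and Wnt5a at 0.127 (1 UMI) and 0.223 (7 UMIs). Across the 19 classes in the fit, the log2 levels of Axin2 correlated with those of Wnt5a (Pearson r = 0.753), Wnt11 (0.582), Wnt2 (0.523), Wnt4 (0.299) and Wnt7b (0.0117). For Lef1 the values were 0.493 with Wnt5a, 0.457 with Wnt11, 0.0183 with Wnt2, −0.00935 with Wnt4 and −0.130 with Wnt7b. These values describe classes that share libraries and mice. Ciliated-like cells, where Wnt4 and, as a mean of the batches, Wnt11 were highest, had too few cells in Batch 1 to be among the 19. They held Axin2 at 0 in Batch 1 and 0.0422 in Batch 2.

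Within alveolar fibroblast-like cells, Wnt2 was found in 23 of 125 cells with Axin2 (18.4%) and 115 of 740 without (15.5%) in Batch 1. In Batch 2 it was found in 24 of 214 (11.2%) and 88 of 985 (8.93%). Any of the 5 ligands was found in 33.6% against 27.97% and in 18.7% against 14.8%. Cells with Axin2 were also deeper, with medians of 1367 against 1286 UMIs and 1971 against 1654 UMIs, and the part of depth in these shares was not tested. Among myofibroblast-like cells, Wnt5a was in 7 of 14 cells with Axin2 against 4 of 50 without in Batch 1, and in 4 of 42 against 20 of 138 in Batch 2, so that the directions were opposite. Cells of a mouse are not replicates, and no test was made of these shares.

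Between cell classes, 5 comparisons were tested with edgeR on UMIs summed over the cells of each class and batch. The genes Wnt4, Wnt7b and Wnt11 did not pass the filter on low counts, and 7 of the 10 genes could be tested. A fold change is given as a log2 difference ± SE, and p is adjusted over all genes tested in the comparison. Each class had 2 sums, 1 per mouse, and the mouse entered as a block.

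The first comparison set alveolar fibroblast-like cells against adventitial fibroblast-like cells. Wnt2 was higher in alveolar fibroblast-like cells, by 4.22 ± 0.95 (edgeR, adjusted p = 0.00443), with 292 UMIs against 2, a ratio of levels of 17.4 (counting interval 4.77 to 144.3). It was the only member called of 7, and 5.42% of all genes tested were called, 2.06% toward alveolar and 3.36% toward adventitial fibroblast-like cells. Axin2 had a difference of 1.48 toward alveolar fibroblast-like cells that did not pass (edgeR, adjusted p = 0.0641). Wnt5a (1.05, adjusted p = 0.419), Sfrp1 (−0.90, adjusted p = 0.201) and Sfrp2 (−4.44, adjusted p = 0.0648, 1 UMI against 5) did not pass in edgeR. Lef1 had 47 UMIs against 0 in adventitial fibroblast-like cells, for a level of 0.135 against 0, and did not pass (edgeR, adjusted p = 0.140). The Wnt2 call was lost with DESeq2 (adjusted p = 0.258) and in edgeR without the block (adjusted p = 0.131).

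Myofibroblast-like against alveolar fibroblast-like cells compared 2 mesenchymal classes that both hold Axin2, and shares the alveolar sums with the first comparison. Lef1 was higher in myofibroblast-like cells, by 2.86 ± 0.62 (edgeR, adjusted p = 0.00141), as was Sfrp2, by 5.58 ± 1.26 (adjusted p = 0.00221, 10 UMIs against 1, a ratio of 102.5 with a counting interval of 14.6 to 4450). Sfrp1 was lower by 4.37 ± 0.68 on the log2 scale (difference −4.37, edgeR adjusted p = 1.14e-05), and Wnt2 was lower (−2.92 ± 0.84, edgeR adjusted p = 0.0181). These were 4 of 7 members, and 9.6% of all genes tested were called, 3.72% toward myofibroblast-like and 5.88% toward alveolar fibroblast-like cells. Axin2 (0.51, adjusted p = 0.598) and Wnt5a (1.09, adjusted p = 0.203) did not pass in edgeR. With DESeq2 the calls of Wnt2 (adjusted p = 0.499) and Sfrp2 (adjusted p = 0.201) were lost, and Wnt2 was also lost in edgeR without the block (adjusted p = 0.172).

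In the alveolar epithelium, Axin2 was lower in AT1-like than in AT2-like cells (−3.35 ± 0.86, edgeR adjusted p = 0.00493), with 2 UMIs against 65 and a ratio of levels of 8.82 toward AT2-like cells (2.35 to 74.4). It was the only member called of 7, and 13.2% of all genes tested were called, 6.1% toward AT1-like and 7.08% toward AT2-like cells. Lef1 had 0 UMIs in AT1-like cells against 13 in AT2-like cells, where its level was only 0.0443, and did not pass (edgeR, adjusted p = 0.159). Wnt7b was not tested, and its level in AT1-like cells was 2.56 times that in AT2-like cells by counts (16 UMIs against 23, counting interval 1.27 to 5.07). The Axin2 call was lost with a mitochondrial limit of 5% (adjusted p = 0.218).

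**Figure D3:**
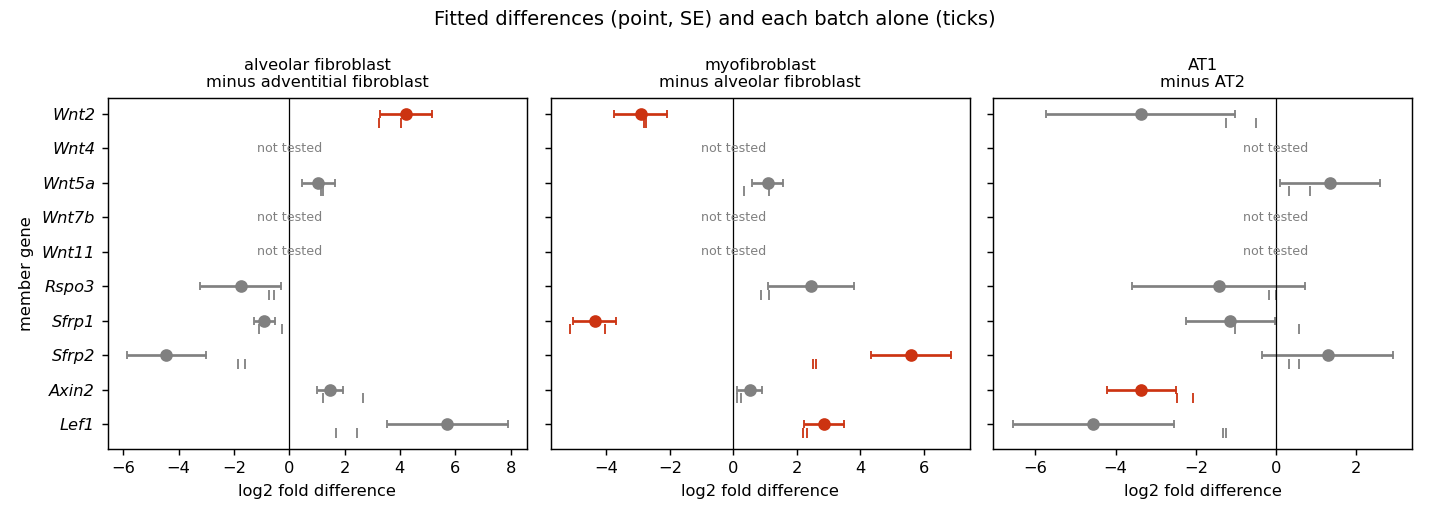
Fitted log2 differences (points, with SE) of the 7 genes tested, with the other 3 marked as not tested, between alveolar and adventitial fibroblast-like cells, between myofibroblast-like and alveolar fibroblast-like cells, and between AT1-like and AT2-like cells, with each batch alone as ticks below. Red points passed an adjusted p of 0.05 in edgeR: Wnt2 in the first comparison (4.22), Wnt2, Sfrp1, Sfrp2 and Lef1 in the second, and Axin2 in the third (−3.35).

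Between compartments, the mean over mesenchymal classes was set against the mean over other classes. Against the epithelium, Wnt5a was higher in mesenchyme by 4.72 ± 0.49 (edgeR, adjusted p = 1.53e-10) and Axin2 by 2.73 ± 0.34 (adjusted p = 8.34e-09), along with Sfrp1 (3.38), Sfrp2 (3.23) and Rspo3 (3.38). These were all 5 members with a p, and 46.7% of all genes tested were called, 22% toward mesenchyme and 24.6% toward epithelium. Against the blood endothelium, Wnt5a (4.66, edgeR adjusted p = 3.30e-10), Axin2 (4.03, adjusted p = 3.45e-12), Sfrp1 (3.88) and Sfrp2 (2.78) were higher in mesenchyme, 4 of 5 members with a p, and 40.3% of all genes were called, 21.3% toward mesenchyme and 19.1% toward endothelium. Rspo3 did not pass there (1.46, edgeR adjusted p = 0.162). Wnt2 and Lef1 had no p in this form because some classes held none of their UMIs. With the cells of the fitted classes summed by compartment, both were higher in mesenchyme than in the epithelium and the blood endothelium. For Wnt2, 292 of the 299 mesenchymal UMIs were from alveolar fibroblast-like cells. These sums left out the classes outside the fit, such as ciliated-like, club-like and vascular smooth muscle-like cells. The differences were 4.71 and 3.54 for Wnt2 (edgeR, adjusted p = 2.92e-07 and 1.66e-06) and 3.41 and 3.54 for Lef1 (adjusted p = 0.000324 and 0.000271), respectively. Of all genes, 31.7% and 25.6% were called there. For Sfrp2 against the blood endothelium the sums of the compartments had no common direction, with 0.0643 UMIs per 10000 in mesenchyme and 0.0948 in endothelium in Batch 1, and 0.108 and 0.0179 in Batch 2. The Sfrp2 calls were lost with DESeq2 (adjusted p = 0.0937 and 0.174).

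The mice differed in Wnt2 and Wnt5a. Within the 19 classes, the log2 level of Batch 2 minus Batch 1 was −1.52 ± 0.44 for Wnt2 and −1.58 ± 0.30 for Wnt5a. It was −0.22 ± 0.23 for Axin2, 0.32 ± 0.39 for Lef1 and 0.53 ± 0.30 for Sfrp1, and the median over all genes was 0.08. The other ligands were too sparse for this estimate. Its SE comes from classes of the same 2 mice, and does not measure the spread between mice. Over all cells, Wnt7b was at 0.0406 in Batch 1 and 0.0538 in Batch 2, and Wnt4 at 0.0384 and 0.0395. Gene and class pairs were then taken where the joint level of both batches gave at least 3 expected UMIs in each. Ligands were higher in Batch 1 in 8 of 9 such pairs, 4 of them of Wnt5a, and Wnt7b in AT2-like cells was the exception. Targets were higher in Batch 1 in 4 of 13 pairs, and the modulators in 2 of 9. The difference between these groups of genes was not tested, and mouse and library cannot be told apart. The direction of the lower Wnt2 and Wnt5a levels of Batch 2 held within each large alveolar fibroblast-like cluster. Wnt2 stood at 1.76 against 0.510 and 1.25 against 0.877, and Wnt5a at 0.746 against 0.358 and 1.32 against 0.334. The intervals of the mice overlapped for Wnt2 at 1.25 against 0.877 and for Wnt5a at 0.746 against 0.358.

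**Figure D4:**
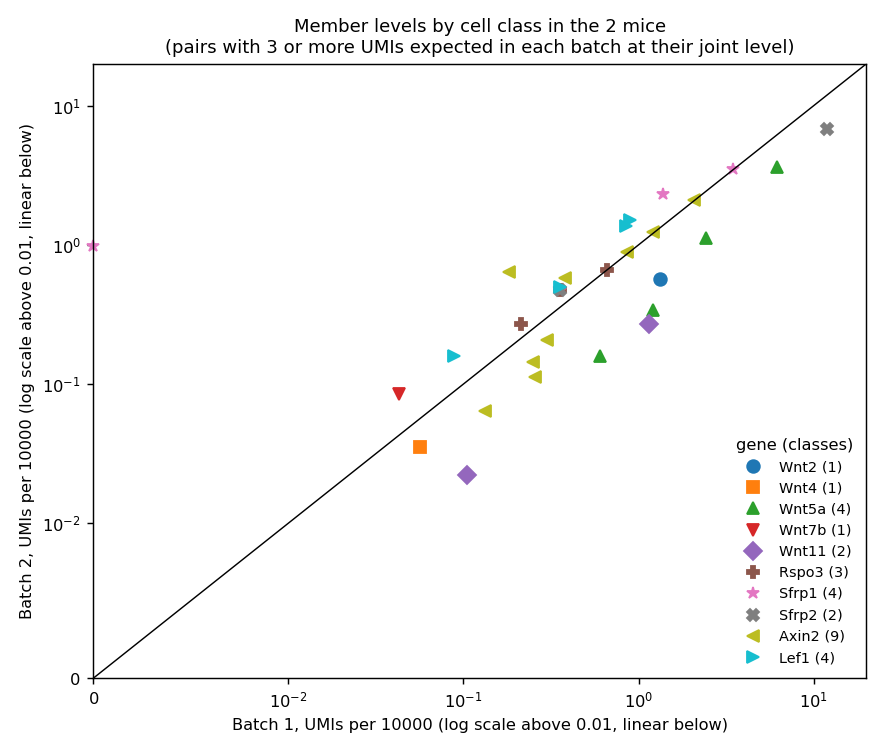
Level of each gene in Batch 1 (x axis) and Batch 2 (y axis), in UMIs per 10000 on axes that are logarithmic above 0.01 and linear below, with 1 point per gene and cell class with at least 3 UMIs expected in each batch at their joint level, and a line of equality. Of 9 ligand points, 8 lie below the line, and Axin2 points lie on both sides.

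A wider list of 82 WNT pathway genes, ordered by role, gave the surroundings of these members. Between alveolar and adventitial fibroblast-like cells, 1 gene of 34 tested was higher in each, where 2.06% and 3.36% of all genes were, and Fzd2, a Frizzled receptor, was the one higher in adventitial fibroblast-like cells (−2.07, edgeR adjusted p = 0.00491). In myofibroblast-like cells 8 of 34 were higher than in alveolar fibroblast-like cells and 2 lower, where 3.72% and 5.88% of all genes were, with a median log2 difference of 0.75 against −0.07 for all genes. Beside Lef1 and Sfrp2, these included Notum (5.25, edgeR adjusted p = 2.89e-05, 66 UMIs against 17), which encodes an enzyme that removes the lipid from WNT ligands, Tcf7 (4.19, adjusted p = 1.44e-06), a TCF/LEF factor, and the ligand-binding inhibitor Wif1 (3.69, adjusted p = 0.0293, 9 UMIs against 6). AT1-like cells had none of 34 higher and 3 lower than AT2-like cells, namely Axin2, Bambi (−2.94, edgeR adjusted p = 0.00262) and Nkd1 (−1.62, adjusted p = 0.00556), where 7.08% of all genes were called toward AT2-like cells.

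Between mesenchyme and epithelium, 15 of 30 genes of the list were higher in mesenchyme and 6 in epithelium, where 22% and 24.6% of all genes were, with a median log2 difference of 0.65 against 0.0036 for all genes. Dkk3 (5.54, edgeR adjusted p = 1.48e-16), Tnfrsf19 (3.56) and the WNT5A receptor Ror2 (3.46) were higher in mesenchyme, and the receptors Fzd5 (−5.12) and Fzd6 (−4.73), Ctnnb1 (−1.70), which encodes beta-catenin, and Nkd1 (−1.66) in epithelium. Between mesenchyme and blood endothelium, 16 of 29 were higher in mesenchyme and 4 in endothelium, where 21.3% and 19.1% of all genes were, with a median log2 difference of 1.00 against 0.06 for all genes. Among them were Dkk3 (6.403), Fzd2 (5.52), Tnfrsf19 (5.51) and Ror2 (5.11) in mesenchyme, and Fzd6 (−4.40), Ctnnb1 (−1.28), Nkd1 (−1.16) and Apc (−0.91) in endothelium.

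By the correlation of log2 levels over the 19 classes among 10629 genes, those most like Axin2 were Ppp2r3a (r = 0.874), Pth1r (0.869), Prdm6 (0.863) and Proca1 (0.861). Those most like Lef1 were Kcnj8 (0.817), Adamts14 (0.810), Rcl1 (0.810) and Foxf2 (0.786), of which Kcnj8 encodes a potassium channel subunit known from pericytes. Here Kcnj8 was among the top genes over all other cells for the myofibroblast-like class, and not for the pericyte-like class. These values are descriptions over classes that share libraries and depth.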

How the data were processed

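Drop-seq counts of 2 mice, 1 per batch, were used. The authors deposited whole UMI counts per gene and cell without normalization. According to the submitters' processing notes, Bowtie2 2.2.7 and mm10 were used, and the methods state counting of unique UMIs per gene and cell. Cells in the files had at least 500 genes. The members and gene lists were chosen with earlier results of these data known. Cells with over 10% mitochondrial UMIs were left out. Cells were clustered (2000 variable genes outside the WNT list, 40 principal components, 20 neighbours, Leiden resolution 1.5) and named from fixed markers. The study's cell labels, at hand for part of Batch 1 only, served as an alternative. Doublets were called with scrublet in scanpy 1.11.5 (2.14% and 2.37% of cells) and kept in the main results. Depth was 659 UMIs per cell or more in Batch 1 and 616 or more in Batch 2.

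Sums per class and batch (38 sums, 39702 to 3341424 UMIs) were fitted in edgeR 4.0.16 (TMM, filterByExpr, quasi-likelihood, 18 residual degrees of freedom, Benjamini-Hochberg, threshold 0.05) with the batch as block, because classes of a batch come from the same mouse; deviations of classes of a batch correlated at a median of 0.18 over 171 pairs (0.05 to 0.52). Genes without UMIs in a class on each side have no p there. The script was tested on simulated data. The genes named were the 10 members, and from the wider list up to 4 per direction with the largest change among those called, with the same direction in both batches and at least 20 CPM. Alternatives were no block, no gene filter, DESeq2 1.42.0, only the classes compared, WNT genes left in the clustering, no doublet calls, other mitochondrial limits and each batch alone. Added after seeing the data were classes with at least 5 cells per batch, compartment sums, a fit without clusters 6, 14, 15 and 30, and the choice of pairs by expected UMIs between the batches. Gene positions are those of GRCm38 in GENCODE. Python 3.11.15 and R 4.3.3 were used.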

Additional observations from a re-analysis of the deposited data

Results flagged for a closer look

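The 1940 cells of Batch 2 over the mitochondrial limit entered no comparison, and held 5030373 UMIs. All 10 members were found in them above the limit that a count of 0 allows, 0.00596 UMIs per 10000, and no control samples exist. Axin2 had 166 UMIs (0.330 UMIs per 10000, against 0.311 in the kept cells), Lef1 63 (0.125 against 0.0976) and Sfrp1 259 (0.515 against 0.400). Wnt2 had 41 UMIs (0.0815 against 0.0867) and Wnt5a 70 (0.139 against 0.165). The levels of Wnt4 (7 UMIs, 0.0139 against 0.0395), Wnt7b (11 UMIs, 0.0219 against 0.0538) and Wnt11 (13 UMIs, 0.0258 against 0.0516) were lower than in the kept cells. Sfrp2 had 22 UMIs (0.0437 against 0.0428), and Rspo3 also had 22 (0.0437 against 0.0324). These cells were not divided by cell class, and whether their classes were mixed as in the kept cells was not tested.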

How the results depend on the processing

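Of 31 comparisons of members with a p, 15 were called, and 9 of these were called under every alternative that gave a p. The other 6 were Wnt2 in both fibroblast comparisons, Sfrp2 in 3 comparisons and Axin2 between AT1-like and AT2-like cells, with the values given above. The 15 calls had the same sign in each batch alone, where no test was possible. Axin2 between alveolar and adventitial fibroblast-like cells passed under 3 of 9 alternatives (adjusted p of 0.00273 to 0.237 over all 9). Without the replicate block, the genes called numbered 147 against 452 between alveolar and adventitial fibroblasts, 450 against 800 between myofibroblasts and alveolar fibroblasts, and 566 against 1093 between AT1-like and AT2-like cells. With only the classes compared, they numbered 860 in the first and 1785 in the last. The causes were not tested. Thinning moved 42 of 60 shares of cells beyond their intervals, and a minimum of 2 UMIs moved 39 of 60. Where gene and class pairs were taken by at least 3 observed UMIs in each batch, which favours pairs higher in the shallower Batch 1, ligands were higher in Batch 1 in 12 of 12 pairs, targets in 7 of 16 and modulators in 4 of 10. Of 60 levels, a mitochondrial limit of 5% moved 7. With the study's cell labels in place of the classes, over the labelled part of Batch 1, 2 of 21 levels moved. These were Sfrp1 in adventitial fibroblast-like cells, to 2.54, and Sfrp2 in mesothelial-like cells, to 3.44. Both values are levels of MatrixFB-2, which holds both kinds of cell, and those labels have no mesothelial subtype. With 1 mouse per batch, spread between mice rests on 2 animals, and levels of a few UMIs are limited by depth.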

Other observations

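Other genes of the WNT list, named after their values were seen, peaked in classes that also held members or in other classes. Wnt9a, a ligand, stood at 2.86 UMIs per 10000 in smooth muscle-like cells of Batch 1 and 1.49 in Batch 2. Rspo1, an R-spondin, stood at 3.75 and 3.62 in mesothelial-like cells, where Wls, which carries WNT ligands to the cell surface, also peaked at 2.92 and 3.62. Dkk2, a secreted inhibitor, stood at 4.83 and 3.87 in arterial-like cells. Nkd1, a feedback inhibitor, stood at 4.77 and 3.93 in aerocyte-like cells, the capillary cells of gas exchange. Wnt3a was at 0.475 and 0.262 in AT1-like cells, and Notum at 4.85 and 1.01 in myofibroblast-like cells. These values carry counting error only and were not tested.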
